A study of Rattus norvegicus with 12 samples.

Results

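Prostaglandins and leukotrienes are lipid mediators made from arachidonic acid, and the transcripts of 10 genes of their synthesis and breakdown were described in rat kidney in 2 models of renal fibrosis. The genes were Ptgs1, Ptgs2, Ptges, Ptgds, Hpgds, Hpgd, Alox5, Alox5ap, Alox15 and Ltc4s. They were chosen by symbol, and each symbol had exactly 1 entry among the 22132 entries of the control and adenine table and 1 among the 32623 entries of the sham and UUO table. All kidneys came from male SD (Sprague-Dawley) rats labelled WT, obtained at 8 weeks of age. Over 3 weeks, rats of the adenine group were gavaged daily with adenine (220 mg/kg) and rats of the control group with saline. The UUO group had unilateral ureteral obstruction, in which the left ureter was tied, and the sham group had the same operation without ligation, with collection 2 weeks after surgery. Each group held 3 individual rats, and kidney tissue was sequenced as poly(A) RNA. The side of the kidney sampled is not given in the sources used here, and the paper names only renal tissue, without the part taken. Values are FPKM, a level normalised for transcript length and library size, so levels of different genes can be set side by side per length.

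Arachidonic acid is released from membrane lipids by phospholipases A2. The cyclooxygenases Ptgs1 (COX-1) and Ptgs2 (COX-2) convert it to prostaglandin H2, from which terminal synthases such as Ptges (prostaglandin E2) and Ptgds and Hpgds (prostaglandin D2) make the active prostaglandins, while Hpgd (15-hydroxyprostaglandin dehydrogenase) inactivates them. The 5-lipoxygenase Alox5, helped by its membrane partner Alox5ap (FLAP), begins the leukotriene branch, Ltc4s joins leukotriene A4 to glutathione to give leukotriene C4, and Alox15 oxygenates arachidonic acid at other carbons. In the kidney COX-2 is known from the macula densa, the medullary interstitium and the thick limb, COX-1 from collecting duct and vessels, and 5-lipoxygenase from leukocytes.

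The tissue differed in cell markers between groups, and 1 control library and 1 UUO library stood apart in podocyte markers. The control library and 1 adenine library also stood apart in some tubule markers. All 9 macrophage markers (Cd68, Csf1r, Adgre1, Cd163, Mrc1, Itgam, C1qa, C1qb and C1qc) rose past the DEG thresholds (log2 fold change beyond 2 either way and adjusted p under 0.05 in limma) in both models. Their summed FPKM ranged from 55.2 to 61.5 in control, 1230 to 1684 in adenine, 62.3 to 76.5 in sham and 723 to 1118 in UUO. Summed neutrophil markers went from 1.14 to 2.49 in control to 14.1 to 26.5 in adenine, and from 0.304 to 1.57 in sham to 6.91 to 38.0 in UUO. In the treated groups that sum was mostly S100a9 and S100a8, with means of 11.7 and 5.97 FPKM in adenine and 11.3 and 5.19 FPKM in UUO. Elane and Mpo of the same list were not tested. Elane had means of 0.018 FPKM in control and 0.029 FPKM in adenine and was at 0.0001 in every sham and UUO kidney. Mpo was 3.30 FPKM in adenine replicate 1 and 0 in adenine replicates 2 and 3. Of 8 mast cell markers, the mast cell proteases Tpsb2, Cma1 and Tpsab1 had no value above 0 in control and none above 0.0001 in sham, and the summed level was 3.26 to 7.33 in control, 10.5 to 14.2 in adenine, 7.49 to 8.33 in sham and 15.7 to 22.8 in UUO. That sum was mostly Kit, the only mast cell marker tested, with means of 4.98 FPKM in control, 10.5 in adenine, 7.41 in sham and 16.2 in UUO. Fibroblast markers rose in 6 of 6 genes in both models, and their sum went from 56.0 to 71.1 in control to 441 to 555 in adenine and from 43.9 to 82.6 in sham to 663 to 1849 in UUO. Of 6 proximal tubule markers 3 fell with adenine and 4 with UUO. Their sum, from 739 to 1665 in control to 48.0 to 283 in adenine and from 1056 to 1536 in sham to 93.3 to 258 in UUO, was led by Slc34a1 (means of 724 and 48.6 FPKM in control and adenine), while Slc5a2 had means of 5.48 and 17.5 FPKM and did not pass. Thick limb and distal tubule markers fell in 3 of 5 and 5 of 5 genes, with sums from 1489 to 2280 in control to 165 to 398 in adenine and from 2511 to 3154 in sham to 115 to 262 in UUO. Collecting duct markers fell in 5 of 6 and 6 of 6 genes, with sums from 234 to 364 in control to 66.3 to 124 in adenine and from 233 to 266 in sham to 63.2 to 78.9 in UUO. Urothelium markers, 5 of 5 of which rose with UUO, had sums of 0.206 to 1.21 in sham and 93.3 to 138 in UUO. T cell markers rose in 5 of 5 genes in both models. Their sums were 7.67 to 13.7 in control, 110 to 119 in adenine, 12.8 to 18.4 in sham and 112 to 237 in UUO. Cd4 led them, with means of 94.1 FPKM in adenine and 95.3 in UUO. Endothelial sums were 17.8 to 23.8 in control, 15.7 to 22.7 in adenine, 24.7 to 37.8 in sham and 61.9 to 84.2 in UUO. Of 3 endothelial genes, 1 rose and 1 fell with adenine, and 2 rose with UUO. Control replicate 2 had a summed level of 3 podocyte markers (Nphs1, Podxl and Wt1) of 17.6 FPKM, against 54.9 and 67.3 FPKM in the other control kidneys, so results that rest on it are given with and without it. The adenine kidneys had podocyte sums of 11.8, 22.5 and 12.5 FPKM, with the highest in adenine replicate 2. Control replicate 2 was also the lowest control kidney for Slc12a3 (12.9 against 197 and 164 FPKM) and Calb1 (27.5 against 407 and 190 FPKM). It was the highest for Slc12a1 (229 against 135 and 160 FPKM) and Aqp3 (59.0 against 31.7 and 30.4 FPKM). Adenine replicate 2 was the highest adenine kidney for Slc12a3 (88.9 against 11.5 and 14.8 FPKM) and the lowest for Slc12a1 (32.8 against 94.4 and 51.7 FPKM). The podocyte sums were 44.7, 48.4 and 77.5 FPKM in sham and 39.9, 52.2 and 17.9 FPKM in UUO, with the lowest in UUO replicate 3. The part of these cell type shifts in the changes described was not tested, and in bulk tissue a different number of cells of a type and a different amount of RNA per cell cannot be told apart.

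**Figure D1:**
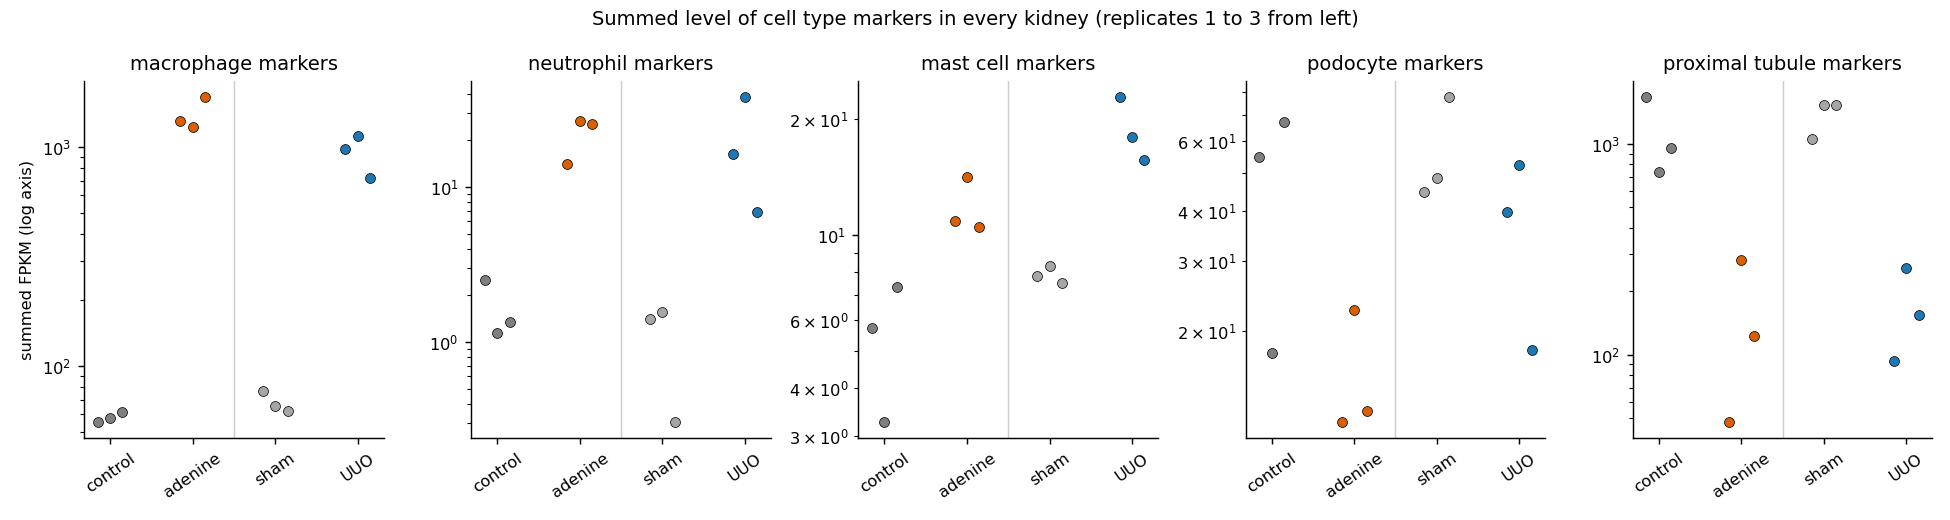
Summed FPKM (log axis) of marker genes of 5 cell types in each of the 12 kidneys, 1 point per kidney. Macrophage sums lie at 76.5 or below in control and sham and at 723 or above in adenine and UUO. Podocyte sums are 17.6 in control replicate 2 and 17.9 in UUO replicate 3.

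Of the 10 genes, 9 reached 0.5 FPKM in 3 or more of the 6 samples of each table and were tested; Hpgds was not. With adenine, DEGs made up 5 of the 9 tested genes, 4 raised (Ptgs1, Alox5, Alox5ap and Ltc4s) and 1 lowered (Ptgs2), where 15.7% of all 15029 tested entries were DEGs, 10.7% raised and 5.03% lowered. With UUO, the same 5 genes were DEGs in the same directions, where 17.4% of all 15043 tested entries were DEGs, 13.2% raised and 4.21% lowered. Which of the 5 passed the fold threshold depended on the setting, although all 5 kept an adjusted p under 0.05 in these. Ptgs1 was no DEG in either model with median-of-ratios scaling or quantile normalization, Alox5ap was no DEG in the UUO model with quantile normalization, and with 1 in place of 0.1 added the DEGs were Alox5ap for adenine and Ptgs1, Alox5ap and Ltc4s for UUO. By adjusted p under 0.05 alone, 7 of 9 genes passed in each model, 5 raised and 2 lowered, against 59.4% of all entries with adenine (39.6% raised, 19.9% lowered) and 70.5% with UUO (56.1% raised, 14.4% lowered). Of the 9 genes, 6 had groups that did not overlap in each model, 4 raised and 2 lowered, against 68% of all entries with adenine (45% raised, 23% lowered) and 75.7% with UUO (60% raised, 15.7% lowered), so those shares are close to the background. Over the 9 genes the median log2 fold change was 1.59 for adenine and 1.91 for UUO, beside 0.30 and 0.62 for all tested entries. Relative to those medians, which other scalings moved to between -0.0018 and 0.83, the adenine and UUO changes were 1.84 and 1.62 for Ptgs1, -2.74 and -2.67 for Ptgs2, 3.58 and 2.60 for Alox5, 2.48 and 1.99 for Alox5ap, 3.03 and 4.51 for Ltc4s and 1.29 and 1.29 for Alox15. They were -0.76 and -1.47 for Ptges, 0.82 and -0.64 for Ptgds and -1.50 and -0.73 for Hpgd. Only kidneys of the treated group reached 0.5 FPKM for Alox5 in both tables and for Ltc4s in the UUO table, and only control kidneys for Ptgs2 in the adenine table. In the adenine table Ltc4s also reached it in control replicate 1 (0.522 FPKM), and in the UUO table Ptgs2 also reached it in UUO replicate 1 (0.832 FPKM). Where only 1 group reached 0.5 FPKM, the filter fixed the direction of the change. The 10 genes were also chosen with earlier results of these data known. The shares of DEGs set beside those of all entries are therefore a description and no test.

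**Figure D2:**
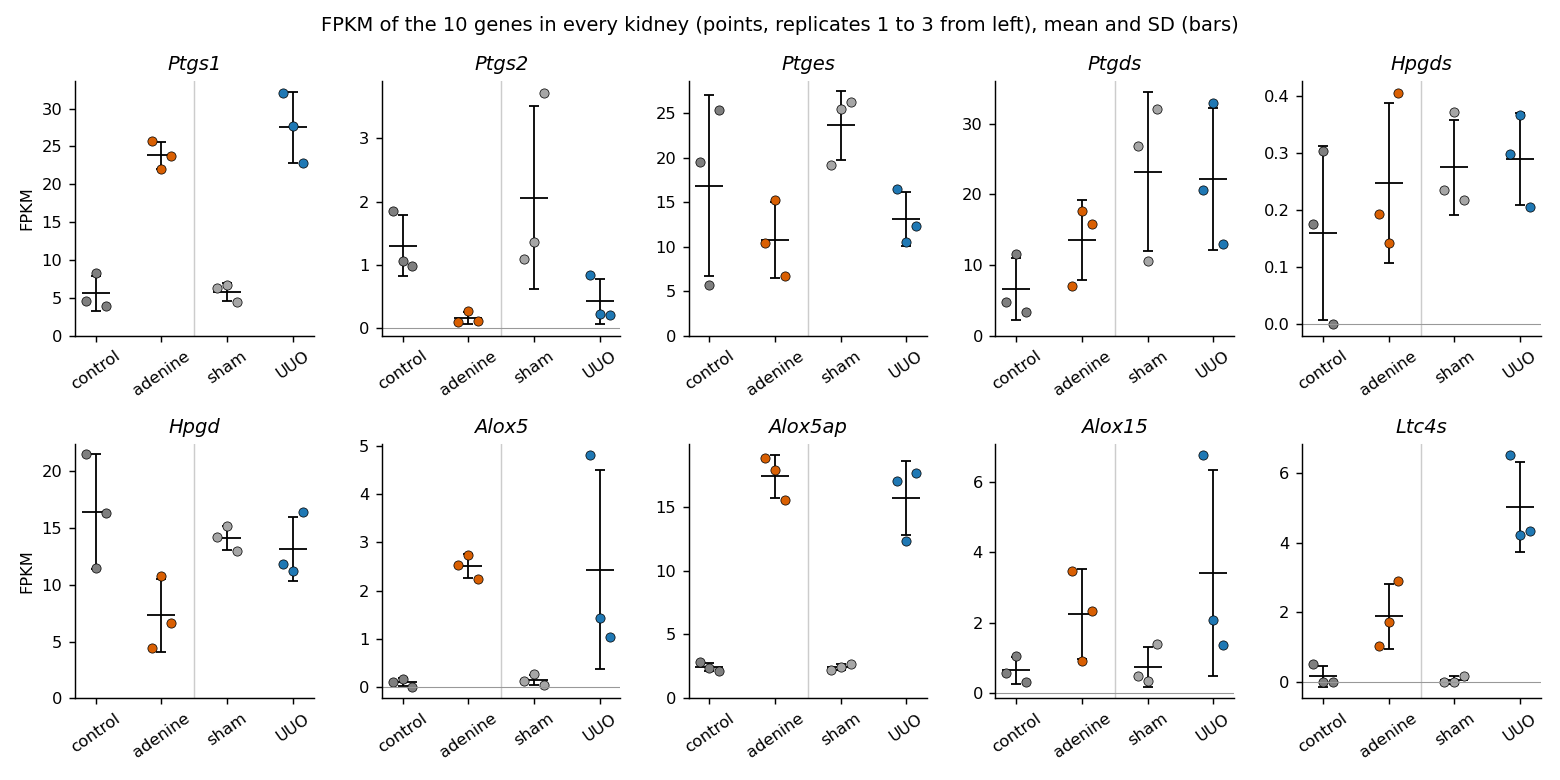
FPKM of the 10 genes (vertical axes, linear) by group, 1 point per kidney with replicates 1 to 3 from left, the mean as a dash and the SD as bars. Ptgs1, Alox5, Alox5ap and Ltc4s are higher in every adenine and UUO kidney than in any control or sham kidney of the same table, and Ptgs2 is lower.

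The 2 cyclooxygenases moved in opposite directions in both models. Ptgs1 was 4.54, 8.25 and 3.97 FPKM in control and 25.7, 22.0 and 23.8 FPKM in adenine. It was 6.27, 6.65 and 4.43 FPKM in sham and 32.1, 27.7 and 22.8 FPKM in UUO. The groups were far apart in both tables, and the highest control value belonged to control replicate 2. With adenine the mean of Ptgs1 rose 4.26-fold, from 5.59 ± 2.33 to 23.8 ± 1.84 FPKM (SD, n = 3), with a log2 fold change of 2.14 (SE 0.27, adjusted p = 0.000692, limma). It rose 4.76-fold with UUO (log2 fold change 2.24, SE 0.20, adjusted p = 0.000104, limma). Without control replicate 2 the adenine log2 fold change of Ptgs1 was 2.46. The adenine and UUO values were 1.85 and 1.64 with median-of-ratios scaling and 1.91 and 1.68 with quantile normalization, under the fold threshold, with adjusted p still under 0.05. These changes lay at the 90.3rd and 88.7th percentile of all tested entries.

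Ptgs2 was lower in level than Ptgs1 in every kidney. It was 1.85, 1.06 and 0.985 FPKM in control and 0.0975, 0.267 and 0.110 FPKM in adenine. It was 1.09, 1.37 and 3.72 FPKM in sham and 0.832, 0.228 and 0.208 FPKM in UUO. The groups did not overlap in either table, but sham replicate 3 stood well above the other sham kidneys and UUO replicate 1 came close to the lowest sham kidney. The mean of Ptgs2 was 8.21-fold lower in adenine than in control, with a log2 fold change of -2.44 (SE 0.39, adjusted p = 0.00191, limma), and 4.87-fold lower in UUO than in sham, with a log2 fold change of -2.05 (SE 0.61, adjusted p = 0.0199, limma). The adenine change was -2.55 without control replicate 2. The UUO change lost its call without sham replicate 3 (log2 fold change -1.54, adjusted p = 0.0545, limma), without UUO replicate 2 (-1.81, adjusted p = 0.0602) and without UUO replicate 3 (-1.77, adjusted p = 0.0631). With 1 in place of 0.1 added the changes of Ptgs2 were -0.97 (adjusted p = 0.00280) and -1.03 (adjusted p = 0.0277), a DEG in neither model, and with the same sum in every sample the UUO change was -1.86, no DEG. The falls of Ptgs2 lay at the 3.68th and 4.21st percentile of all tested entries.

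Within a kidney the FPKM ratio of Ptgs2 to Ptgs1 does not depend on the scaling between samples. It was 0.408, 0.128 and 0.248 in control and 0.00380, 0.0122 and 0.00463 in adenine, and it was 0.173, 0.206 and 0.842 in sham and 0.0259, 0.00822 and 0.00915 in UUO. Ptgs1 was therefore the more abundant transcript in all 12 kidneys, and the gap was wider in every treated kidney. On the log2 scale with 0.1 added to each FPKM the ratio fell by 4.59 with adenine and by 4.29 with UUO (exact two-sided permutation p = 0.1 in each, the smallest that 3 against 3 samples allow, and 0.25 after Benjamini-Hochberg adjustment over 10 ratio tests).

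The promoters of the cyclooxygenase genes are shown because the genes moved apart. Of the 10 genes, 7 had an entry in the RefSeq promoter set of build GRCr8, and Hpgds, Alox5ap and Alox15 had none. Each entry runs from 250 bases before the annotated start to 50 bases after it, 5′ to 3′ on the gene's strand. Capitals mark matches, on either strand, to a TATA box (TATAAA), a GC box (GGGCGG), a PU.1 core (GAGGAA), an E-box (CACGTG) or a C/EBP site (TTNNGCAA). Ptgs1 lies at chr3:39981169-39981468 on the plus strand and Ptgs2 at chr13:64713813-64714112 on the plus strand.
Ptgs1: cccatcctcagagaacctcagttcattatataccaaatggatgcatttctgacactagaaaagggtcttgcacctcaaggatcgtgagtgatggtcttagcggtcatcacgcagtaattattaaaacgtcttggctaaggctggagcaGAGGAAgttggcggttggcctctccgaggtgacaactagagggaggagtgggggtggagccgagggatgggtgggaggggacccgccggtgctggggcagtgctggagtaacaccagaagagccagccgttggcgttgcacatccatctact
Ptgs2: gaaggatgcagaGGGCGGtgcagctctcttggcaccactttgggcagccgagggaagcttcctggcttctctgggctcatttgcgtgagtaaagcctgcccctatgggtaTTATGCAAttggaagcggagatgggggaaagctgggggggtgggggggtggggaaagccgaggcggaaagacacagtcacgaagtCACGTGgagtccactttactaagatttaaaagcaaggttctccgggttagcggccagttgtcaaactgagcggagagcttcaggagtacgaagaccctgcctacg
The Ptgs1 window held a PU.1 core, which 27.6% of the 33469 promoters in the set held. The Ptgs2 window held a GC box, a C/EBP match and an E-box, found in 33.1%, 10.6% and 6.42% of all promoters. Neither window held TATAAA, which 14.2% of all promoters held. These matches describe the letters of the windows only.

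Among the terminal synthases Ptges fell in the UUO model, and Ptgds passed in neither model. Ptges, the microsomal prostaglandin E synthase, was 19.6, 5.67 and 25.4 FPKM in control and 10.4, 15.3 and 6.73 FPKM in adenine. It was 19.2, 25.5 and 26.3 FPKM in sham and 16.5, 10.5 and 12.4 FPKM in UUO. All UUO kidneys were below all sham kidneys, whereas control and adenine overlapped through control replicate 2, the lowest of the 6. Ptges fell by 0.86 on the log2 scale in the UUO model (SE 0.20, adjusted p = 0.00735, limma), a mean 1.80-fold lower. In the adenine model the log2 fold change was -0.47 (SE 0.58, adjusted p = 0.515, limma) with all samples and -1.12 (adjusted p = 0.0388, limma) without control replicate 2.

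Ptgds, the lipocalin-type prostaglandin D synthase, was 4.82, 11.6 and 3.35 FPKM in control and 7.07, 17.6 and 15.8 FPKM in adenine. It was 26.9, 10.6 and 32.2 FPKM in sham and 20.7, 33.0 and 12.9 FPKM in UUO. The groups overlapped in both tables, and neither change of Ptgds passed. Its log2 fold change was 1.12 (SE 0.52, adjusted p = 0.107, limma) with adenine and -0.021 (SE 0.49, adjusted p = 0.972, limma) with UUO. Without control replicate 2 the adenine value was 1.62 (adjusted p = 0.0228), and without adenine replicate 1 it was 1.53 (adjusted p = 0.0445). Hpgds, the haematopoietic prostaglandin D synthase of mast cells and other leukocytes, was 0.176, 0.305 and 0 FPKM in control, 0.194, 0.143 and 0.407 FPKM in adenine, 0.235, 0.372 and 0.219 FPKM in sham, and 0.299, 0.367 and 0.205 FPKM in UUO. No kidney reached the 0.5 FPKM filter for Hpgds, and Ptgds exceeded it in each of the 12 kidneys. The log2 ratio of Hpgds to Ptgds differed by -0.55 with adenine and by 0.079 with UUO, with overlapping groups (exact permutation p = 0.5 and 0.9).

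Hpgd, which oxidises prostaglandins to inactive 15-keto forms, was 21.6, 11.5 and 16.3 FPKM in control and 4.45, 10.8 and 6.68 FPKM in adenine. It was 14.2, 15.2 and 13.0 FPKM in sham and 11.9, 11.2 and 16.4 FPKM in UUO. Adenine kidneys lay below control kidneys, the closest pair being control replicate 2 and adenine replicate 2, while sham and UUO overlapped. With adenine Hpgd fell by 1.20 on the log2 scale (SE 0.36, adjusted p = 0.0251, limma). With UUO its log2 fold change was -0.12 (SE 0.16, adjusted p = 0.536, limma). Without control replicate 2 the adenine value was -1.44 (adjusted p = 0.0218). The adenine call was lost with the same sum in every sample (-0.94, adjusted p = 0.0592), and without control replicate 1 (adjusted p = 0.0775), control replicate 3 (0.0660), adenine replicate 1 (0.0602) or adenine replicate 3 (0.0714). The log2 ratio of Ptges to Hpgd, the maker and the breaker of prostaglandin E2, was 0.74 higher in adenine than in control (exact permutation p = 0.3) and 0.74 lower in UUO than in sham (exact permutation p = 0.2), with overlapping groups in both.

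Alox5, Alox5ap and Ltc4s rose in both models. Alox5 was 0.106, 0.169 and 0 FPKM in control and 2.53, 2.74 and 2.25 FPKM in adenine. It was 0.109, 0.256 and 0.0438 FPKM in sham and 4.81, 1.44 and 1.04 FPKM in UUO. The adenine kidneys were alike, and UUO replicate 1 was over 3 times the other UUO kidneys. The log2 fold change of Alox5 was 3.87 (SE 0.41, adjusted p = 0.000339, limma) with adenine and 3.22 (SE 0.62, adjusted p = 0.00331, limma) with UUO. Because reference levels were near 0, the fold of Alox5 depends on the amount added before the log.

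Alox5ap, the partner that presents arachidonic acid to 5-lipoxygenase, varied little within groups. It was 2.83, 2.40 and 2.16 FPKM in control and 18.8, 17.9 and 15.5 FPKM in adenine. It was 2.23, 2.45 and 2.70 FPKM in sham and 17.0, 12.3 and 17.6 FPKM in UUO. Its mean rose 7.06-fold with adenine and 6.36-fold with UUO, with log2 fold changes of 2.77 (SE 0.15, adjusted p = 4.0e-05, limma) and 2.61 (SE 0.17, adjusted p = 4.0e-05, limma). In each treated kidney the level of Alox5ap was below that of Ptgs1 and above that of Alox5.

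Ltc4s was 0.522, 0 and 0 FPKM in control and 1.05, 1.71 and 2.90 FPKM in adenine. In the second table it was listed at 0.0001, 0.0001 and 0.194 FPKM in sham and was 6.50, 4.22 and 4.32 FPKM in UUO. All treated kidneys exceeded all reference kidneys of the same table. Levels in UUO and adenine kidneys are not set against each other, because the tables were processed separately. The log2 fold change of Ltc4s was 3.32 (SE 0.79, adjusted p = 0.010, limma) with adenine and 5.13 (SE 0.48, adjusted p = 0.000135, limma) with UUO. These folds rest on reference kidneys at or near 0, and with 1 in place of 0.1 added they were 1.28 and 2.48. Within a kidney, the log2 ratio of Alox5ap to Ltc4s was 2.52 lower in UUO than in sham without overlap (exact permutation p = 0.1) and 0.55 lower in adenine than in control with overlap (exact permutation p = 0.6), a difference that turned to 1.13 with 1 added. The UUO difference was -0.23 with 1 added (exact permutation p = 0.4) and -4.83 with 0.01 added, so with sham Ltc4s at or near 0 its size is set by the amount added.

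The promoters of Alox5 and Ltc4s are printed as the pair of leukotriene genes with entries that rose together. In GRCr8 Alox5 lies at chr4:151251077-151251376 and Ltc4s at chr10:35063545-35063844, both on the minus strand, and capitals mark the same motifs.
Alox5: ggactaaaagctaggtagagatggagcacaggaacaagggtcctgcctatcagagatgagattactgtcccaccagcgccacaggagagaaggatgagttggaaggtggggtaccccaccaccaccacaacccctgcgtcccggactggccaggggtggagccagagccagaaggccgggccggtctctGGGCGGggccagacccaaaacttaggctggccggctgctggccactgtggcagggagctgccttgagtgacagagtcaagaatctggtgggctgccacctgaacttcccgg
Ltc4s: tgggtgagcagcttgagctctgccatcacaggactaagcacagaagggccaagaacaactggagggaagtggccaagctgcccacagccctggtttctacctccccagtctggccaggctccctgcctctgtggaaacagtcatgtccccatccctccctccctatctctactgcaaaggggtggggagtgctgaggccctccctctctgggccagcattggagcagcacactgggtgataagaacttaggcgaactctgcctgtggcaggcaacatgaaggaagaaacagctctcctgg
The Alox5 window held a GC box and none of the other motifs. The Ltc4s window held none of the 5. The 2 windows shared none of the motifs searched.

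Alox15, the 12/15-lipoxygenase, was variable within groups. It was 0.575, 1.07 and 0.314 FPKM in control and 3.47, 0.920 and 2.35 FPKM in adenine. It was 0.501, 0.364 and 1.41 FPKM in sham and 6.75, 2.08 and 1.39 FPKM in UUO. The groups overlapped in both tables, through control replicate 2 and adenine replicate 2 and through sham replicate 3 and UUO replicate 3. Alox15 passed narrowly, with log2 fold changes of 1.59 (SE 0.57, adjusted p = 0.0467, limma) and 1.91 (SE 0.67, adjusted p = 0.0384, limma). Without control replicate 2, the highest of the control kidneys, the adenine value was 1.97 (adjusted p = 0.0321, limma) and the groups did not overlap. Alox15 kept its call in 6 of 15 alternative settings in each model. Alox15 has close relatives among the lipoxygenases, and how reads shared between them were assigned is not given in the sources used here. The log2 ratio of Alox5 to Alox15 was 2.29 higher in adenine than in control without overlap (exact permutation p = 0.1) and 1.31 higher in UUO than in sham with overlap (exact permutation p = 0.4).

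**Figure D3:**
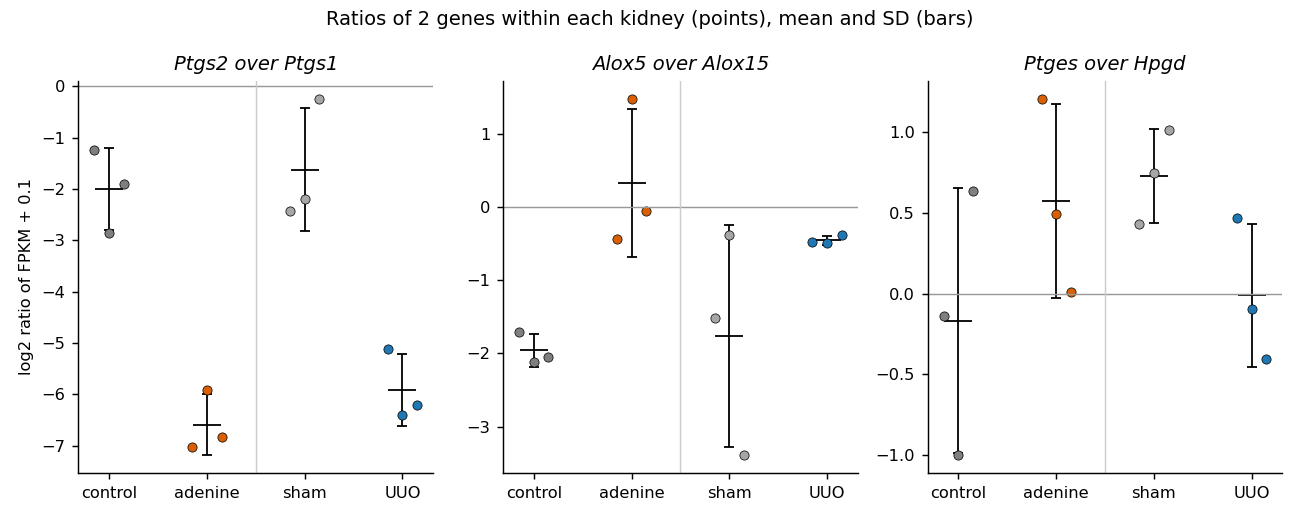
Log2 ratio of FPKM + 0.1 of 2 genes within each kidney (vertical axes), 1 point per kidney with the mean as a dash and the SD as bars. The ratio of Ptgs2 to Ptgs1 separates treated from reference kidneys in both models, that of Alox5 to Alox15 separates them in the adenine model but not in the UUO model, and that of Ptges to Hpgd overlaps in both.

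The order of levels changed with treatment. In control and sham kidneys Ptges had the highest mean of the 10 genes (16.9 and 23.7 FPKM) but overlapped with the next gene, Hpgd in control and Ptgds in sham. In adenine and UUO kidneys Ptgs1 had the highest mean (23.8 and 27.5 FPKM); it did not overlap with the next gene, Alox5ap, in adenine and overlapped with the next, Ptgds, in UUO. Ptgs2 held rank 6 of the 10 in control and sham, rank 10 in adenine and rank 9 in UUO. Alox5 held rank 10 in control and rank 9 in sham, and rank 6 in adenine and rank 8 in UUO, while neighbouring ranks mostly overlapped.

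None of the 9 genes passed the test of a different change in the 2 models (limma estimates, Benjamini-Hochberg over 13486 symbols), against 27% of all symbols, and 1 of 9, Hpgd, had an unadjusted p under 0.05. The change of Hpgd was 1.09 higher in the UUO model than in the adenine model on the log2 scale (95% interval 0.24 to 1.94, adjusted p = 0.0564). It passed without control replicate 2 (1.32, adjusted p = 0.0354), without adenine replicate 2 (1.41, adjusted p = 0.0141) and without UUO replicate 2 (1.19, adjusted p = 0.0482), and in no other setting. The Hpgd difference was 0.78 (adjusted p = 0.166) with median-of-ratios scaling and 0.83 (adjusted p = 0.153) with quantile normalization. It was 0.87 (adjusted p = 0.141) without control replicate 1 and 0.78 (adjusted p = 0.143) without adenine replicate 1. For Ltc4s the difference was 1.80 (95% interval -0.18 to 3.79, adjusted p = 0.159), and for Ptgds it was -1.14 (95% interval -2.68 to 0.41, adjusted p = 0.254). The intervals were narrowest for Alox5ap (-0.67 to 0.33) and Ptgs1 (-0.62 to 0.81), and wider for Ptgs2 (-1.15 to 1.94), Alox5 (-2.26 to 0.95), Ptges (-1.71 to 0.93) and Alox15 (-1.58 to 2.21).

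**Figure D4:**
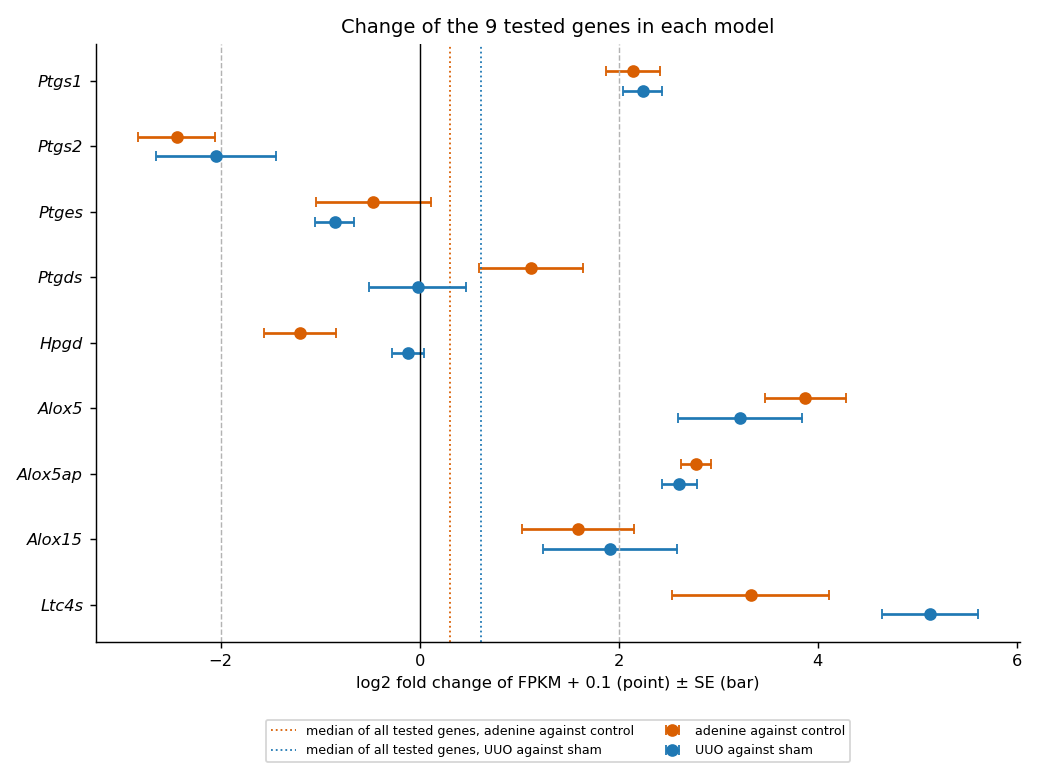
Log2 fold change of FPKM + 0.1 (horizontal axis) of the 9 tested genes in the adenine model (orange) and the UUO model (blue), with SE bars. Dotted lines give the median of all tested entries, 0.30 and 0.62, and dashed lines the DEG threshold of 2; Ptgs2 lies below -2 and Ptgs1, Alox5, Alox5ap and Ltc4s lie above 2 in both models.

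The other genes of the pathway were counted from 6 lists of 59 symbols. In the adenine model 39 of 53 genes found were tested, 18 rose and 12 fell by adjusted p under 0.05, and 11 raised genes and 1 lowered gene were DEGs. Those are 46.2% raised and 30.8% lowered, beside 39.6% and 19.9% of all tested entries, and 28.2% raised DEGs beside 10.7%. In the UUO model 40 of 55 found were tested, 25 rose and 10 fell, and 10 raised genes and 1 lowered gene were DEGs. Those are 62.5% raised and 25% lowered, beside 56.1% and 14.4% of all tested entries, and 25% raised DEGs beside 13.2%. With either median-of-ratios scaling or quantile normalization, 16 of 40 rose and 11 fell with UUO. Over all 15043 tested entries, 8420 and 8574 had an adjusted p under 0.05 (limma) with these scalings, raised and lowered together. Without further scaling the number was 10606. With adenine, 17 of 39 rose and 13 fell with median-of-ratios scaling, and 16 rose and 13 fell with quantile normalization. Of all 15029 entries, 8626 and 8630 had an adjusted p under 0.05 (limma) with these scalings in the adenine model. Raised and lowered shares of all entries were not split under these scalings, so the split counts have no like background. Pla2g2d and Ptger2 passed the filter on low values only through the treated group in both tables, as did Alox15b and Cysltr1 in the adenine table and Ltb4r in the UUO table, and Ptgfr passed only through the reference group in both. The filter thus fixed the direction of these genes there. The lists were chosen with earlier results of these data known, so the shares beside those of all entries are no test. Ptgis, Ptgdr and Ggt5 were not analysed here.

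Upstream of the cyclooxygenases, 3 of 10 tested phospholipases and lipases were raised DEGs with adenine and 3 of 11 with UUO, the same genes in each. The secreted phospholipase Pla2g2a rose with log2 fold changes of 2.66 and 3.31 and Pla2g2d with 5.48 and 4.12. Pla2g7, which hydrolyses platelet-activating factor and not arachidonate-bearing membrane lipid, went from a mean of 2.02 to 454 FPKM with adenine and from 3.99 to 14.4 FPKM with UUO, and its change differed between models by -5.74 on the log2 scale (UUO minus adenine, adjusted p = 0.000105). The cytosolic phospholipase Pla2g4a, the main supplier of arachidonic acid, rose by less, 1.10 and 1.11. Its adenine value did not pass with median-of-ratios scaling (0.81, adjusted p = 0.0527) or quantile normalization (0.65, adjusted p = 0.0966). The UUO value of Pla2g4a was 0.53 and 0.36 with these scalings. Pla2g7 in the UUO model was no DEG with median-of-ratios scaling (1.42) or quantile normalization (1.32). Mgll, a monoglyceride lipase, fell by 1.68 in the UUO model, and its adenine change of -0.56 did not pass (difference -1.12, adjusted p = 0.0440). The changes of Pla2g4b (-0.71 with adenine and 0.72 with UUO, adjusted p of the difference 0.00866) and Pla2g12a (-0.46 and 0.15, adjusted p of the difference 0.0211) also differed between models, but the UUO values depended on the scaling. That of Pla2g4b was -0.088 with quantile normalization, and that of Pla2g12a was -0.44 (adjusted p = 0.0107) with median-of-ratios scaling and -0.30 (adjusted p = 0.0202) with quantile normalization.

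Among the other prostanoid synthases, Tbxas1 (thromboxane synthase) was the only DEG of the 6 tested genes, with log2 fold changes of 5.56 for adenine and 3.00 for UUO, which differed by -2.56 (adjusted p = 0.00129). Ptges3, also known as the Hsp90 co-chaperone p23, fell by 0.47 with adenine and rose by 0.59 with UUO (difference 1.06, adjusted p = 0.000541), but its UUO value was -0.0071 with median-of-ratios scaling and its adenine value did not pass with the same sum in every sample (-0.20, adjusted p = 0.151). Of 5 genes of prostaglandin transport and inactivation none was a DEG in either model by limma, with 1 raised and 2 lowered by adjusted p alone in the adenine model and 3 raised and 2 lowered in the UUO model. The exporter Abcc4 rose by 1.78 and 1.07 (difference -0.71, adjusted p = 0.0443), and the reductase Ptgr1 had log2 fold changes of 0.26, which did not pass, and 1.17 (difference 0.90, adjusted p = 0.0227), the latter 0.57 with median-of-ratios scaling (adjusted p = 0.0558).

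Of 8 tested prostanoid receptor genes, Ptger2, an E-prostanoid receptor coupled to cyclic AMP, and Ptgir, the prostacyclin receptor, were raised DEGs in both models. Ptger2 had log2 fold changes of 4.35 and 2.51, which differed by -1.85 (adjusted p = 0.00706; the UUO value was 1.69, no DEG, with quantile normalization), with a mean of 0.279 FPKM in control, 7.89 in adenine, 0.242 in sham and 1.92 in UUO, and Ptgir had log2 fold changes of 2.58 and 3.45. Ptgfrn, a regulator of the prostaglandin F receptor, rose by 1.74 and 2.29. The thromboxane receptor Tbxa2r fell by 1.91 with adenine, and its UUO value of 0.49 did not pass (difference 2.40, adjusted p = 0.00124).

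Around the leukotriene genes, Alox15b (log2 fold changes 6.03 and 4.86) and Mgst2 (4.74 and 5.13), a microsomal glutathione transferase that can also make leukotriene C4, were raised DEGs in both models. Alox12 (2.06) and the dipeptidase Dpep2 (2.25) were DEGs with adenine and rose by 0.95 and 1.01 with UUO. With median-of-ratios scaling neither was a DEG with adenine (1.79 and 1.97) and neither UUO value passed (0.42, adjusted p = 0.268, and 0.44, adjusted p = 0.324). The change of Alox12 differed between models by -1.11 (adjusted p = 0.0309). The leukotriene C4 exporter Abcc1 rose by 1.99 and 1.05 (difference -0.95, adjusted p = 0.0145), the UUO value being 0.28 with quantile normalization (adjusted p = 0.129). Mgst3, another microsomal glutathione transferase, fell by 1.49 and 1.04. Lta4h, which makes leukotriene B4, rose by 0.84 and 1.03, and by 0.55 and 0.43 with median-of-ratios scaling. Ggt1, which converts leukotriene C4 to D4 and is best known as a brush border enzyme of the proximal tubule, was the only lowered DEG of the lists in either model without further scaling, from a mean of 886 to 93.0 FPKM and from 930 to 98.0 FPKM (log2 fold changes -3.32 and -3.27). With median-of-ratios scaling Tbxa2r with adenine (-2.17) and Mgll with UUO (-2.28) were lowered DEGs too. Quantile normalization gave 3 lowered DEGs of the lists in each model. Dpep1, which acts on leukotriene D4, had log2 fold changes of -0.73, which did not pass, and 1.63, which did (difference 2.35, adjusted p = 0.0131). Of 6 leukotriene and lipoxin receptors, Cysltr1 was tested only in the adenine model, with a log2 fold change of 2.92, and Ltb4r only in the UUO model, with 3.08. With 1 in place of 0.1 added these were 0.83 and 0.97.

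**Figure D5:**
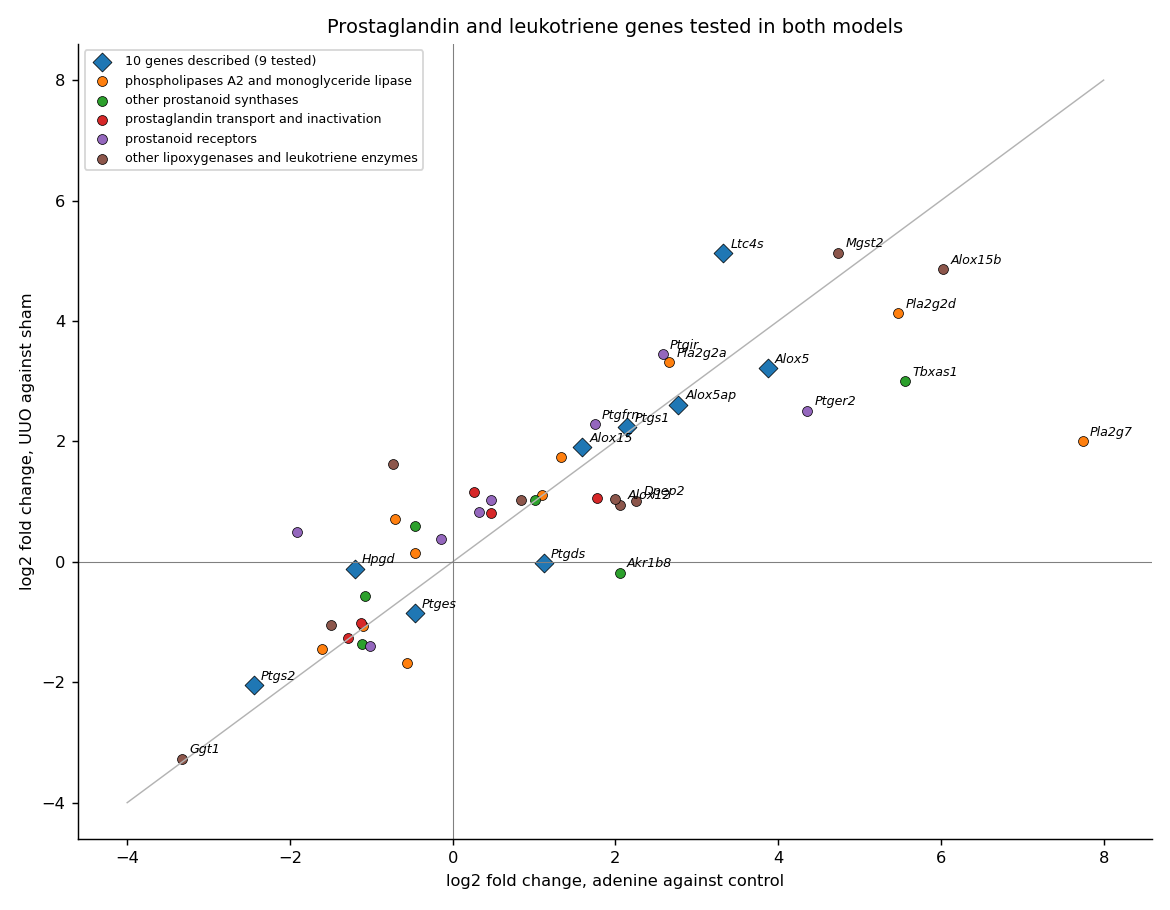
Log2 fold change in the adenine model (horizontal axis) against the UUO model (vertical axis) for the 47 prostaglandin and leukotriene genes tested in both, coloured by list, with the line of equality. Diamonds are 9 of the 10 genes described; Pla2g7 lies far to the right at 7.74 and 2.00, and Ptgs2 and Ggt1 lie at the lower left.

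The genes nearest in pattern over the 12 kidneys were taken by the smallest distance of log2(FPKM + 0.1) centred within each table. For Ptgs1 they were Sema6b, Vasp and Il17re (distances 0.64, 0.64 and 0.65), and for Alox5ap they were Arhgap9, Mob3a and Lpcat1 (0.45, 0.52 and 0.53). Alox5 was nearest to Gpr153, to the macrophage marker Csf1r and to Ifitm10 (1.58, 1.65 and 1.65). Ltc4s was nearest to Ctse, Adamts1 and Adamts2 (2.34, 2.38 and 2.40), and Alox15 to Plk2, Bnipl and AABR07051952 (1.77, 1.89 and 1.89). Ptgs2 was nearest to AABR07026058, Nat8f4 and LOC102556148 (1.68, 1.74 and 1.77). For Ptges the nearest were Pde9a, Entpd3 and A4galt (0.79, 0.93 and 1.06), for Hpgd Hspa12a, Tnfaip8 and Acsl3 (0.71, 0.78 and 0.83), and for Ptgds AABR07024907, AABR07049038 and Xkr5 (1.60, 1.67 and 1.68). All 12 values share the treatment contrast, so genes that change by a like amount are near each other.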

How the data were processed

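Poly(A) RNA of 12 kidneys was sequenced on a NovaSeq. The authors deposited FPKM values in 2 tables, made separately for the control and adenine groups and for the sham and UUO groups; per the labels the submitters' processing notes name cutadapt 1.9, HISAT2 2.0.4, StringTie 1.3.4d, edgeR and DESeq2. The genome build is not given in the sources used here. Read depth is unknown, because FPKM holds no counts, and the lowest value was 0 in the first table and 0.0001 in the second.

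Each table was fitted alone with limma 3.58.1 (R 4.3.3, eBayes with a trend) on log2(FPKM + 0.1) for entries that reached 0.5 FPKM in 3 or more of the 6 samples, with Benjamini-Hochberg adjustment over all tested entries. Fold changes are on that log2 scale, which understates the change of low genes. DEGs were called at the study's thresholds, a log2 fold change beyond 2 in size with adjusted p under 0.05. The difference between models was the difference of both log2 fold changes over its SE. Ratios within a kidney were compared by exact two-sided permutation tests (scipy 1.17.1). The test was checked on simulated data. The 10 genes and all gene lists were chosen with earlier results of these data known. Of the other pathway genes, DEGs of at least 1 model and genes whose change differed between models were named, and so were the 3 nearest genes by pattern; Pla2g4a, Lta4h and Mgst3 fall outside that rule and were named after their values were seen. Alternatives covered the pseudocount, the filter, 3 scalings, the trend, a replicate block and leaving out each replicate. A further podocyte marker is not reported here. Replicates of a group are separate rats per the labels. Promoters came from RefSeq (GRCr8).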

Additional observations from a re-analysis of the deposited data

How the results depend on the processing

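The directions and adjusted p under 0.05 of Ptgs1, Alox5, Alox5ap and Ltc4s held in both models under all 15 alternative settings, as did Ptges in the UUO model and Ptgs2 in the adenine model under the 14 settings that tested it. With 1 added in place of 0.1 the 5 DEGs became 1 (adenine) and 3 (UUO). Over all tested entries DEGs went from 2360 to 1320 (adenine) and from 2613 to 1465 (UUO) with that change. Quantile normalization gave 3 for UUO, without Ptgs1 and Alox5ap (the cause was not tested). Ptgs1 was no DEG in either model with median of ratios or quantile normalization. Leaving out each replicate gave 4 to 6 DEGs (adenine) and 4 to 5 (UUO). Without control replicate 2 the adenine model had 5 DEGs, and 9 of 9 genes had an adjusted p under 0.05 (limma). In that fit 8505 of all 15029 tested entries had an adjusted p under 0.05, and 2377 were DEGs. The count with adjusted p under 0.05 ranged from 5 to 9 and from 5 to 6 over fits that left out a replicate. With 1 added, 1 gene, Ltc4s, passed the test of the difference between models (1.21, adjusted p = 0.0160), and leaving out a replicate gave 0 to 1.

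Other scalings moved the median of all tested entries from 0.30 and 0.62 to 0.013 and 0.033 (median of ratios), -0.0018 and 0.039 (quantile) or 0.56 and 0.83 (same sum). In the UUO model the log2 fold change of Hpgd was -0.71 (adjusted p = 0.00674) with median-of-ratios scaling, -0.64 (adjusted p = 0.0124) with quantile normalization and 0.11 with the same sum in every sample, and that of Ptgds was 0.20 with the same sum and ranged from -0.51 to 0.32 without a replicate, with 0.16, 0.29 and 0.32 above 0. Hpgd in the adenine model lost its call with the same sum (adjusted p = 0.0592) and Ptgs2 in the UUO model without a filter (adjusted p = 0.111).

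Correlations of same-numbered deviations from the group means were small. They ran from -0.12 to -0.049 in the adenine model and from 0.050 to 0.11 in the UUO model. In the UUO model they were above those of differently numbered samples, and whether the replicate numbers pair the samples was not tested. With a replicate block both models kept the same 5 DEGs, while Hpgd in the adenine model (adjusted p = 0.0666) and Alox15 in both (0.0905 and 0.0653) no longer passed. The difference of log2 ratios depended on the pseudocount. That of Ptgs2 to Ptgs1 was -2.94 and -3.11 with 1 added, that of Hpgds to Ptgds 0.36 in the adenine model with 0.01, and that of Alox5 to Alox15 in the adenine model 0.77 with 1 and 3.66 with 0.01. That of Alox5ap to Ltc4s was 1.13 and -0.23 with 1 and -2.72 and -4.83 with 0.01.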
